A study of Mus musculus with 16 samples.

Results

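The p53 target genes described here are 10 genes that the transcription factor p53 is known to switch on: Cdkn1a, Ccng1, Mdm2, Bbc3, Bax, Pmaip1, Perp, Phlda3, Sesn1 and Trp53inp1. They were chosen by name, and every probe annotated to one of them by its current symbol or a synonym was taken. Of the 10 genes, 7 had an annotated probe, with 16 probes among the 25696 of the array, and all 16 passed the filter on dim probes. Bax, Pmaip1 and Perp had no annotated probe in the tables used and were not analysed here. RNA was measured on 16 Illumina beadchip arrays of whole mouse hearts at E9.25 (22 to 24 somites), on a mixed C57/BL6;129Ola background. KO hearts (3 arrays) were MesP1-cre:RBPJlox/lox, DKO hearts (4 arrays) were MesP1-cre:RBPJlox/lox//Axin2-/-, DKOhet hearts (2 arrays) were MesP1-cre:RBPJlox/lox//Axin2+/-, hetDKO hearts (3 arrays) were MesP1-cre:RBPJlox/+//Axin2-/-, and control hearts (4 arrays) were wild type. Rbpj encodes the DNA-binding protein of the Notch pathway, and Axin2 is a scaffold protein that restrains Wnt signalling. MesP1-cre acts in early mesoderm, which gives rise to the heart, so cells of other origin keep Rbpj, while the loss of Axin2 affects every cell of the embryo. The labels do not say whether arrays of one group came from separate embryos, so the tests speak only of the spread among these arrays.

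In response to DNA damage and other stress, p53 is stabilised and binds paired half-sites near its target genes. The targets then halt the cell cycle (Cdkn1a), kill the cell through mitochondria (Bbc3, Bax, Pmaip1), repair DNA, or damp p53 itself (Mdm2). In mouse embryos excess p53 activity is harmful to the heart and other organs, and Mdm2 is needed to hold it in check.

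Of the members whose start regions match the p53 half-site consensus, Cdkn1a, Mdm2 and Ccng1 are shown, and Bax and Sesn1 are not printed. The search took exact matches only, so a half-site with a mismatch stays in lower case. RefSeq promoter windows (GRCm38.p6, 250 bases before to 50 bases after the start) were found for 7 of the 10 members, in 11 windows. The p53 half-site consensus, searched on both strands, was found in 5 of these 11 windows, in Cdkn1a, Mdm2, Ccng1, Bax and Sesn1, and in 8.356% of 32851 RefSeq promoter windows of the same length. A full site, which is a pair of half-sites at most 13 bases apart, was found in the first Cdkn1a window, and 24 of the 32851 windows had one. The core letters of an RBPJ site, TGGGAA on either strand, were found in 4 of the 11 windows and in 25.561% of all windows. Each sequence is printed 5′ to 3′ on the strand of its gene, with the p53 half-sites or the RBPJ core letters in capitals, here in both starts of Cdkn1a and in Mdm2 and Ccng1.
Cdkn1a, first start (chr17:29090729-29091028, plus strand): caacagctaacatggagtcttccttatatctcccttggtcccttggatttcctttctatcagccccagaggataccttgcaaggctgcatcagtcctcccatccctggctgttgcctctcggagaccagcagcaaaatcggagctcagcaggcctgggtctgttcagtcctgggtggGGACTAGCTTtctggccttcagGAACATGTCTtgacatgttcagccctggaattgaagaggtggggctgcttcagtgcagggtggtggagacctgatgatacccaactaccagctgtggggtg
Cdkn1a, second start (chr17:29093519-29093818, plus strand): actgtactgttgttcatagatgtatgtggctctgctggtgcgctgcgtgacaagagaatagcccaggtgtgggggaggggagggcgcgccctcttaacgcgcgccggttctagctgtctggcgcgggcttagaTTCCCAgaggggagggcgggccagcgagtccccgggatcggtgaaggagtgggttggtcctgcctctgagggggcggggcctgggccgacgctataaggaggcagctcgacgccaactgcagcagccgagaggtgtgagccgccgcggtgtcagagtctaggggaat
Mdm2 (chr10:117710709-117711008, minus strand): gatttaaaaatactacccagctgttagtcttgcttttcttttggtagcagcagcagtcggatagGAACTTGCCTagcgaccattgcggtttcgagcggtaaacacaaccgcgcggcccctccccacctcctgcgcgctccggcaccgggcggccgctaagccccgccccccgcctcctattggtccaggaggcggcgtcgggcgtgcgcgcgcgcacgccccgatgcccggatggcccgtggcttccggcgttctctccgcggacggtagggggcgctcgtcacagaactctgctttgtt
Ccng1 (chr11:40755237-40755536, minus strand): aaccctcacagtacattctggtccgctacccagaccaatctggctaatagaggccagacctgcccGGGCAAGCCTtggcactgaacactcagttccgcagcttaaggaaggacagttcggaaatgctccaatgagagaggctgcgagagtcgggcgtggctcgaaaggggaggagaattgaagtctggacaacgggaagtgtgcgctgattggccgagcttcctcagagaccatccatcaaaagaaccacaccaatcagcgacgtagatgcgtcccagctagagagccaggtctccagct
In the first Cdkn1a window the half-sites GGACTAGCTT and GAACATGTCT began at -73 and -51 relative to the start, and the single half-sites were GAACTTGCCT in Mdm2 and GGGCAAGCCT in Ccng1. The capitals of the second Cdkn1a window, TTCCCA, are the RBPJ core letters read on the other strand. None of the 3 Bbc3 windows matched any of these motifs. A match describes letters only, and binding of p53 or RBPJ was not measured in this study.

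Signals are given on the log2 scale after background correction and quantile normalisation, where a difference of 1 is a doubling, and each gene is represented by its brightest probe. A change was called when its adjusted p (limma, two-sided, Benjamini-Hochberg over all 14058 kept probes) was under 0.05. Each array detected 12360 to 13196 probes, with median intensities of 171 to 211.65 before normalisation. KO replicate 2 stood apart from the rest, at 45.79 on the third principal component, where the other 15 arrays lay between -13.25 and 15.87. DKOhet replicate 1 had the highest signal of all 16 arrays for 3 of the 7 genes (Cdkn1a, Ccng1 and Bbc3) and for 8 of the 16 probes. Cardiac muscle markers were detected on all 16 arrays for 7 of 8 genes, Tnnt2 having no annotated probe.

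The p53 target genes changed little in hearts without Rbpj. Over the 7 genes the median log2 change was 0.14 in KO hearts, 0.14 in DKO hearts, 0.31 in DKOhet hearts and 0.03 in hetDKO hearts, each against control, and the median over all 9697 measured genes was 0.00, 0.00, 0.00 and 0.01. These medians rested on few arrays. The KO median was 0.02 without control replicate 2, 0.03 without KO replicate 3, 0.07 with the beadchip as a block and 0.00 with the erythroid level as a covariate. The DKO median was 0.27 without DKO replicate 4 and 0.24 without control replicate 3. The DKOhet median was 0.22 without DKOhet replicate 1, 0.43 with the beadchip as a block and 0.41 with array weights. In KO hearts 1 of the 7 genes was called, Trp53inp1, which fell, against 6.81% of all genes called in that comparison. In DKO hearts 0 of 7 were called, against 12.9% of all genes. In DKOhet hearts 1 of 7 was called, Cdkn1a, which rose, against 8.15% of all genes. In hetDKO hearts, which keep 1 copy of Rbpj intact, limma called 0 of 7 members and 0% of all genes. At an unadjusted p under 0.05 the counts were 2 of 7 in KO, 3 in DKO, 3 in DKOhet and 0 in hetDKO hearts, against 23.2%, 28.2%, 24.5% and 3.56% of all genes. A count of 0 or 1 among 7 genes is close to those shares and is no particular feature of these genes. Because the arrays measured whole hearts, fewer cells that express a gene and less RNA per cell cannot be told apart.

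**Figure D1:**
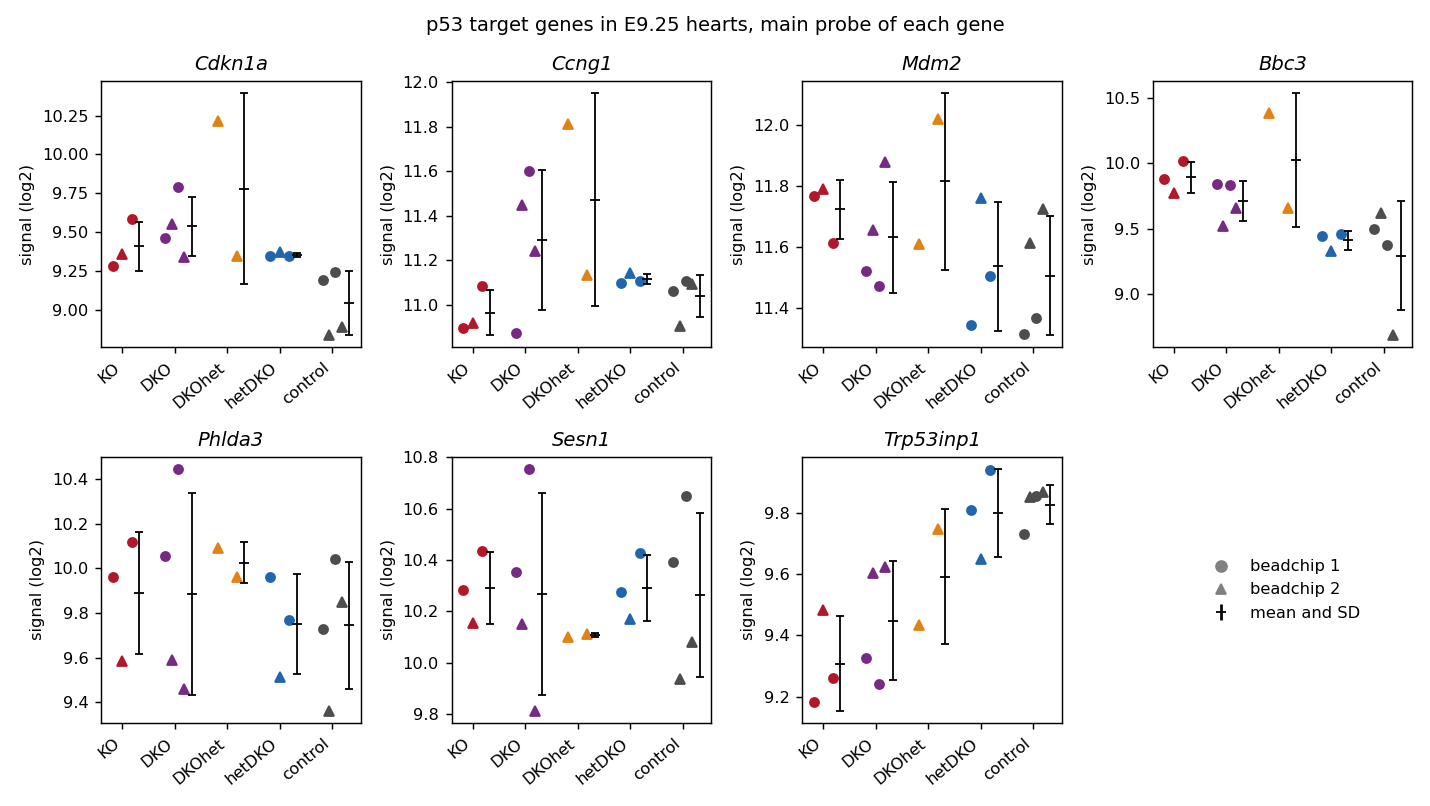
Signal (log2) of the brightest probe of each measured p53 target gene on every array, with a panel per gene and the groups along the horizontal axis; circles are beadchip 1, triangles beadchip 2, and the black bar beside each group is its mean and SD. Trp53inp1 lay at 9.18 to 9.62 in the KO and DKO arrays and at 9.65 to 9.94 in the hetDKO and control arrays, and a single DKOhet array stands at the top of the Cdkn1a, Ccng1 and Bbc3 panels.

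Trp53inp1, a stress-induced nuclear protein that promotes the phosphorylation of p53 and takes part in autophagy, was the member with the clearest difference. Its signal was 9.18, 9.48 and 9.26 in KO hearts and 9.33, 9.60, 9.24 and 9.62 in DKO hearts. It was 9.44 and 9.75 in DKOhet hearts, against 9.81, 9.65 and 9.94 in hetDKO hearts and 9.73, 9.85, 9.86 and 9.87 in control hearts. All 7 KO and DKO arrays lay below all 7 hetDKO and control arrays, with the highest DKO array at 9.62 and the lowest hetDKO array at 9.65, while the DKOhet arrays overlapped the controls. The level averaged 9.31 ± 0.16 in KO hearts (SD, n = 3), 9.45 ± 0.19 in DKO hearts (SD, n = 4), 9.80 ± 0.14 in hetDKO hearts (SD, n = 3) and 9.83 ± 0.06 in control hearts (SD, n = 4).

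The log2 change of Trp53inp1 was -0.52 in KO hearts against control (SE 0.13, 95% interval -0.80 to -0.24, adjusted p = 0.0281 by limma), which is 1.43-fold lower. In DKO hearts against control it was -0.38, just outside the threshold (adjusted p = 0.0505 by limma, and called at 0.0368 with the beadchip as a block), and in DKO against hetDKO hearts it was -0.35 (adjusted p = 0.109 by limma). Taken over both Axin2 states, as the mean of KO and DKO minus the mean of control and hetDKO, Trp53inp1 fell by 0.44 on the log2 scale (SE 0.09, adjusted p = 0.00433 by limma), a 1.35-fold difference. In that comparison 1 of 7 members was called higher and 1 lower, against 10.8% and 10.2% of all genes (21.1% in either direction), and Trp53inp1 was the 1 member whose arrays did not overlap, against 3.36% of genes lying wholly below and 3.97% wholly above. HetDKO and control hearts differed by -0.03 (95% interval -0.31 to 0.25). The test of whether the Rbpj effect differed between the Axin2 states gave 0.17 (95% interval -0.22 to 0.56, adjusted p = 0.967 by limma), and it called 0 of 7 members and 0% of all genes (0 members and 4.35% at an unadjusted p under 0.05). Control hearts were wild type, while hetDKO hearts carried MesP1-cre and 1 floxed Rbpj copy. KO against control thus includes the presence of cre and the loss of both Rbpj copies, and DKO against hetDKO the loss of 1. These parts cannot be told apart in the mean over both Axin2 states or in this test.

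A second, dimmer Trp53inp1 probe also fell in the mean over both Axin2 states, by 0.32 on the log2 scale (SE 0.11, adjusted p = 0.0456 by limma). It gave -0.26 in KO hearts (adjusted p = 0.326 by limma) and -0.18 in DKO hearts (adjusted p = 0.447 by limma), and its DKO arrays reached 8.13, above every control array. The values that follow are for the brightest Trp53inp1 probe. The DKO change passed the threshold without DKO replicate 2, DKO replicate 4, either DKOhet replicate or KO replicate 2 (adjusted p from 0.0456 to 0.0498 by limma). With each array left out in turn, the mean over both Axin2 states stayed called for the brightest probe all 16 times, from -0.48 to -0.40. In KO against control the call was lost without control replicate 2, control replicate 3, KO replicate 1 or KO replicate 3 (adjusted p from 0.0562 to 0.102 by limma), and it held at -0.61 without KO replicate 2. The log2 change over both Axin2 states was -0.58 within beadchip 1 (adjusted p = 0.00945 by limma) and -0.21 within beadchip 2 (adjusted p = 0.663 by limma), a difference that was not tested. For KO against control the values within the beadchips were -0.57 and -0.38, neither called (adjusted p = 0.0656 and 0.592 by limma).

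**Figure D2:**
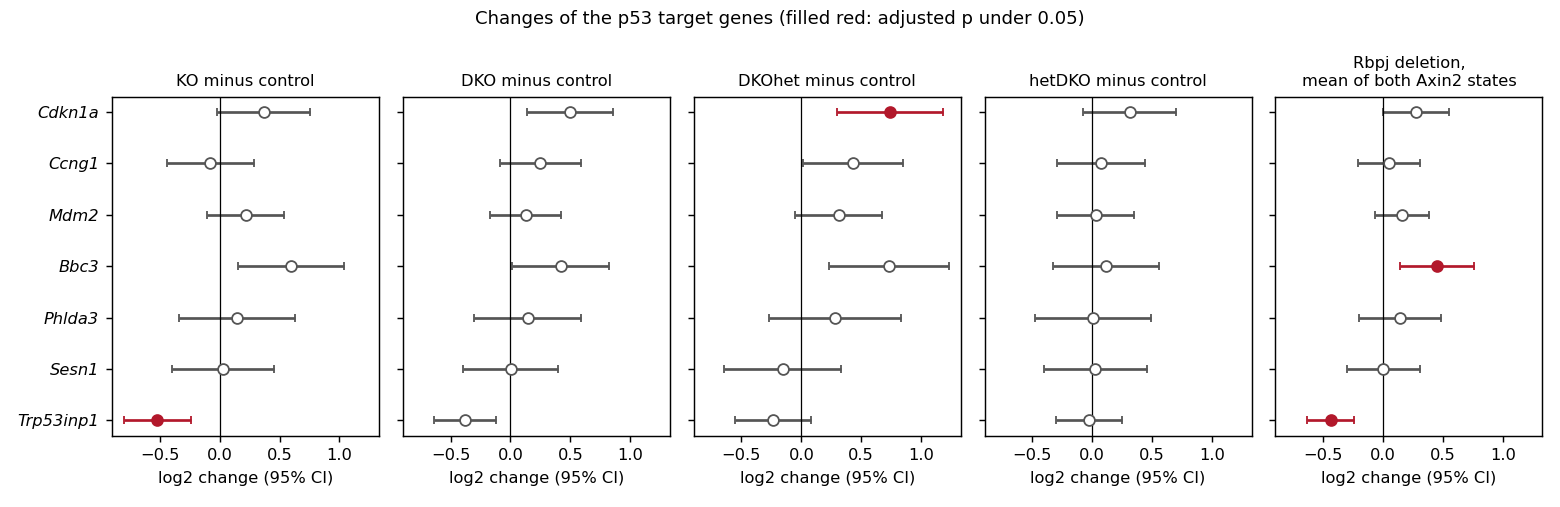
Log2 change of each measured p53 target gene with its 95% interval (limma), a panel per comparison, with filled red points where the adjusted p was under 0.05. The filled points are Trp53inp1 in KO against control and in the mean of both Axin2 states, Cdkn1a in DKOhet against control, and Bbc3 in the mean of both Axin2 states; no interval in the hetDKO panel excludes 0.

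Cdkn1a encodes p21, the inhibitor of cyclin-dependent kinases through which p53 stops the cell cycle in G1. Its signal was 9.28, 9.36 and 9.59 in KO hearts, 9.46, 9.55, 9.79 and 9.34 in DKO hearts, and 10.21 and 9.35 in DKOhet hearts. It was 9.35, 9.37 and 9.34 in hetDKO hearts, against 9.19, 8.84, 9.24 and 8.89 in control hearts. Every mutant array of the 4 genotypes, hetDKO included, lay above the highest control array, and the 2 beadchip 2 controls were the lowest of all 16 arrays. All 4 genotypes carry MesP1-cre and the wild-type controls do not, and the part of cre was not tested. The log2 change was 0.37 in KO hearts (95% interval -0.02 to 0.76, adjusted p = 0.227 by limma), 0.50 in DKO hearts (0.14 to 0.85, adjusted p = 0.0661) and 0.31 in hetDKO hearts (-0.08 to 0.70, adjusted p = 0.998), so none of these was called.

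In DKOhet hearts Cdkn1a rose by 0.74 (SE 0.21, adjusted p = 0.04 by limma), which is 1.67-fold. The call rested on DKOhet replicate 1: without it the change was 0.31 (adjusted p = 0.438 by limma), and without DKOhet replicate 2 it was 1.17 (adjusted p = 0.00842 by limma), with the lone array assumed to vary like the other groups. The call was also lost without any 1 of the 4 control replicates, DKO replicates 1 or 2, or any of the 3 hetDKO replicates (adjusted p from 0.0512 to 0.0825 by limma). In DKO hearts the change of 0.50 passed the threshold when either DKOhet replicate was left out (adjusted p = 0.0224 by limma). The other 2 Cdkn1a probes were not called in any comparison; the brighter of them gave 0.11 in KO, 0.39 in DKO and 0.49 in DKOhet hearts against control, and the dimmer, detected on 9 of 16 arrays, gave -0.33, -0.01 and 0.40. In DKO against hetDKO hearts, where both groups lack Axin2, the Cdkn1a change was 0.18 (95% interval -0.20 to 0.57). Both DKOhet arrays lie on beadchip 2, and within that beadchip the change against control was 0.92 (adjusted p = 0.236 by limma).

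Bbc3 encodes Puma, a BH3-only protein that triggers cell death at the mitochondrion. Its signal was 9.88, 9.78 and 10.02 in KO hearts, 9.84, 9.52, 9.84 and 9.66 in DKO hearts, and 10.39 and 9.66 in DKOhet hearts. It was 9.44, 9.33 and 9.46 in hetDKO hearts, against 9.50, 9.62, 9.37 and 8.68 in control hearts. The KO and DKOhet arrays all lay above the controls, DKO replicate 2 was the one DKO array below the highest control, and control replicate 4 was the lowest of all arrays. Over both Axin2 states Bbc3 rose by 0.45 (SE 0.15, 95% interval 0.14 to 0.76, adjusted p = 0.0403 by limma), which is 1.37-fold, though single comparisons were not called. These were 0.60 in KO (adjusted p = 0.0913 by limma), 0.42 in DKO (adjusted p = 0.164) and 0.73 in DKOhet hearts (adjusted p = 0.0676), against 0.12 in hetDKO hearts (adjusted p = 0.998).

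The Bbc3 call was close to the threshold. It was kept in 7 of the 16 fits that left out 1 array, with adjusted p-values from 0.0256 to 0.0902 (limma), and was lost without control replicate 3, DKO replicates 1, 3 or 4, any of the 3 hetDKO replicates, KO replicate 1 or KO replicate 3. Without control replicate 4, the lowest array, the change was 0.35 and still called (adjusted p = 0.0387 by limma). The change was 0.45 within beadchip 1 (adjusted p = 0.0183 by limma) and 0.44 within beadchip 2. Beadchip 2 held 1 KO and 1 hetDKO array, and its controls lay far apart, at 9.62 and 8.68. The value of 0.44 thus rests in part on control replicate 4, the lowest array. In DKOhet hearts the change was 0.37 without DKOhet replicate 1 (adjusted p = 0.493 by limma) and 1.09 without DKOhet replicate 2 (adjusted p = 0.0366 by limma), with the lone array assumed to vary like the other groups. With the beadchip as a block the DKOhet change was 0.84 and called (adjusted p = 0.0364 by limma). The second Bbc3 probe was detected on 4 of 16 arrays and gave 0.15 (adjusted p = 0.444 by limma).

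**Figure D3:**
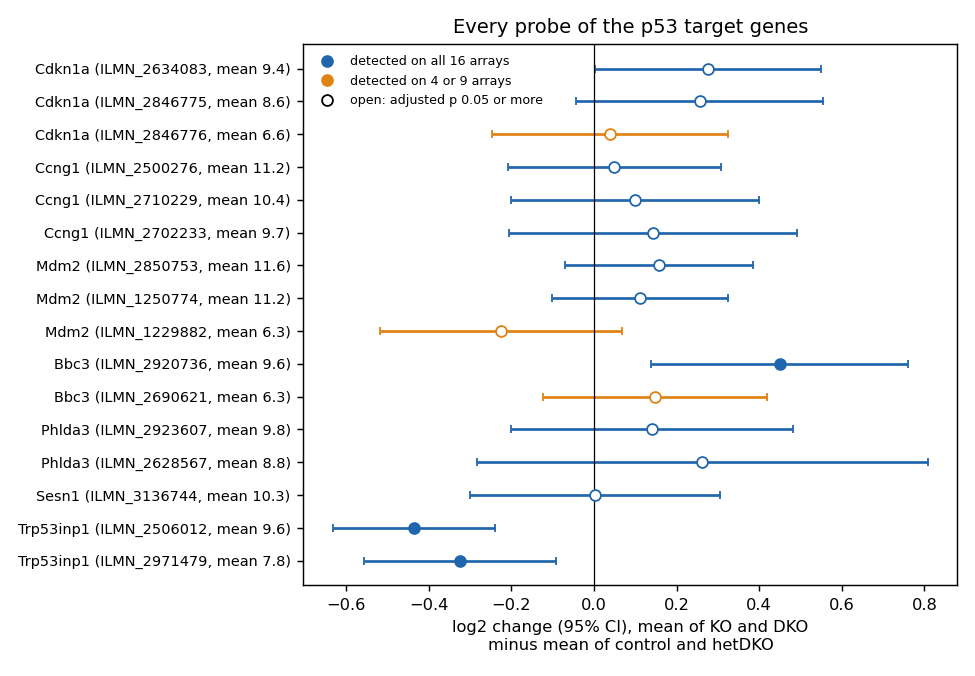
Log2 change over both Axin2 states (mean of KO and DKO minus mean of control and hetDKO) with its 95% interval for each of the 16 probes of the p53 target genes, named with the mean log2 signal; orange probes were detected on 4 or 9 arrays, the others on all 16, and filled points had an adjusted p under 0.05. Both Trp53inp1 probes and the brighter Bbc3 probe are filled.

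Ccng1, Mdm2, Phlda3 and Sesn1 were called in none of the 8 comparisons, and in each of the 4 comparisons with control the 95% interval of their change, by the brightest probe, excluded a doubling. Ccng1 encodes cyclin G1, which acts on Mdm2 through a phosphatase. It had signals of 10.89, 10.92 and 11.08 in KO hearts, 10.87, 11.45, 11.60 and 11.24 in DKO hearts, and 11.81 and 11.14 in DKOhet hearts. In hetDKO hearts it had 11.10, 11.14 and 11.11, and in control hearts 11.06, 10.90, 11.11 and 11.09. The DKO arrays spread on both sides of the controls, and DKOhet replicate 1 was again the highest. The largest Ccng1 change was 0.43 in DKOhet hearts (95% interval 0.02 to 0.84, adjusted p = 0.18 by limma), and it was 0.09 without DKOhet replicate 1 (adjusted p = 0.856 by limma) and 0.77 without DKOhet replicate 2 (adjusted p = 0.0576 by limma). In KO hearts the change was -0.08 (95% interval -0.44 to 0.29).

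Mdm2 encodes the ubiquitin ligase that degrades p53, and its transcription by p53 closes a feedback loop. Its signal averaged 11.72 ± 0.10 in KO hearts (SD, n = 3), 11.63 ± 0.18 in DKO hearts (SD, n = 4), 11.81 in DKOhet hearts (n = 2), 11.54 ± 0.21 in hetDKO hearts (SD, n = 3), and 11.51 ± 0.20 in control hearts (SD, n = 4). The groups overlapped throughout. The change was 0.22 in KO hearts (95% interval -0.10 to 0.54), 0.13 in DKO hearts (-0.17 to 0.42), 0.31 in DKOhet hearts (-0.05 to 0.67) and 0.03 in hetDKO hearts (-0.29 to 0.35). Of the other 2 Mdm2 probes, the bright one gave changes of 0.11 in KO and 0.11 in DKO hearts, and the dim one was detected on 4 arrays.

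Phlda3 encodes a protein that competes with the survival kinase Akt for membrane lipids. Its signal averaged 9.89 ± 0.27 in KO hearts (SD, n = 3), 9.89 ± 0.45 in DKO hearts (SD, n = 4) and 9.74 ± 0.29 in control hearts (SD, n = 4). The change was 0.14 in both KO and DKO hearts and 0.28 in DKOhet hearts (95% interval -0.27 to 0.83). Its other probe gave 0.33 in DKO hearts (95% interval -0.38 to 1.05) and 0.78 in DKOhet hearts (-0.10 to 1.65), neither called (adjusted p = 0.555 and 0.256 by limma), and these intervals do not exclude a doubling. Sesn1 encodes sestrin 1, which restrains mTORC1 signalling under stress. Its signal averaged 10.29 ± 0.14 in KO hearts (SD, n = 3), 10.27 ± 0.39 in DKO hearts (SD, n = 4) and 10.26 ± 0.32 in control hearts (SD, n = 4). The change was 0.03 in KO (95% interval -0.40 to 0.46), 0.00 in DKO and -0.16 in DKOhet hearts (95% interval -0.64 to 0.33). For both genes the beadchip 1 arrays were mostly higher than the beadchip 2 arrays of the same genotype.

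Genes whose arrays did not overlap between groups were counted as well, and with 7 genes each count is small. In KO hearts 2 of the 7 genes (Cdkn1a and Bbc3) lay wholly above control and 1 (Trp53inp1) wholly below, against 10.4% and 8.97% of all genes. In DKO hearts there was 1 above and 1 below, against 10.2% and 8.69%. In DKOhet hearts 3 lay above and 0 below, against 15.4% and 14.4%, and in hetDKO hearts 1 lay above and 0 below, against 2.86% and 2.52%. DKO against hetDKO hearts, with Axin2 absent from both, had 1 gene wholly above (Bbc3) and 1 wholly below (Trp53inp1), against 13.4% and 13.2%, and 0 of the 7 were called, against 7.99% of all genes (1 of 7 and 24.9% at an unadjusted p under 0.05). DKO against KO hearts, which differ in Axin2, had 0 of 7 genes called and 0% of all genes, with 2.21% of all genes wholly above and 2.57% wholly below and 0 members in either, and with changes from -0.18 (Bbc3) to 0.33 (Ccng1, 95% interval -0.04 to 0.69), and 0 members and 4.65% of all genes had an unadjusted p under 0.05.

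The genes closest to Trp53inp1 and Cdkn1a, the members called in a comparison with control, in their 4 log2 changes against control were found by the root mean square difference over the 4 genotypes. For Trp53inp1 they were Srsf10 (0.0291), Elavl2 (0.0325) and Nacc2 (0.0398), and for Cdkn1a they were Calcr (0.0505), Chmp5 (0.0530) and Zfp30 (0.0562). The 4 comparisons share their control arrays.

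Genes around the 7 members were read from lists of the wider p53 pathway. Of 27 measured other p53 targets, 3 rose and 0 fell in KO hearts, 5 rose and 0 fell in DKO hearts, 4 rose and 0 fell in DKOhet hearts, and 0 changed in hetDKO hearts. DKO against hetDKO hearts had 4 higher and 0 lower. The median changes of the list were 0.10, 0.08, 0.18 and -0.03 against control in these 4 genotypes, and 3.92%, 7.08%, 4.55% and 0% of all genes were called higher there, with 4.3% in DKO against hetDKO. Called lower were 2.89%, 5.83%, 3.6% and 0% of all genes, with 3.69% in DKO against hetDKO. Some of these counts rested on single arrays. The count higher was 1 in DKOhet hearts without DKOhet replicate 1, 1 in KO hearts without KO replicate 1 or KO replicate 3, and 3 in DKO hearts without DKO replicate 3. In DKO against hetDKO it was 1 without hetDKO replicate 1 and 2 without hetDKO replicate 3.

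DNA repair genes were among those that rose. Polk, a DNA polymerase that copies past damaged bases, had signals of 8.92 to 9.09 in the 3 KO arrays and 8.94 to 9.37 in the 4 DKO arrays, against 7.79 to 8.39 in the 4 control arrays. All KO and DKO arrays lay above all controls, with changes of 0.89 (adjusted p = 0.00781 by limma) and 1.06 (adjusted p = 0.00115 by limma). Ddb2, which recognises ultraviolet damage for excision repair, averaged 8.99 ± 0.05 in KO hearts (SD, n = 3), 8.99 ± 0.19 in DKO hearts (SD, n = 4) and 8.42 ± 0.13 in control hearts (SD, n = 4). Its changes were 0.57 (adjusted p = 0.0207 by limma) and 0.58 (adjusted p = 0.00827 by limma), also without overlap, and its other 2 probes rose by 0.83 and 0.90 in DKO hearts (adjusted p = 0.00134 and 0.00235 by limma). In KO hearts those probes disagreed, with 0.28, not called and overlapping the controls, and 0.89, called (adjusted p = 0.239 and 0.00633 by limma). Against hetDKO hearts, DKO hearts had Polk higher by 0.81 and Ddb2 by 0.61 (adjusted p = 0.0121 and 0.0129 by limma). Over both Axin2 states Polk rose by 0.91 within beadchip 1 and 0.69 within beadchip 2 (adjusted p = 0.00545 and 0.283 by limma), and Ddb2 by 0.62 and 0.55 (adjusted p = 0.0164 and 0.301 by limma).

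Sesn2, the sestrin 2 gene, which amino acid stress also induces, averaged 7.71 ± 0.51 in DKO hearts (SD, n = 4) and 6.50 ± 0.40 in control hearts (SD, n = 4), a change of 1.21 (adjusted p = 0.0354 by limma). It was detected on 2 of the 4 control and 1 of the 3 hetDKO arrays, and on all DKO arrays, so its control level lies partly at background. Plk2, a polo-like kinase, averaged 10.23 ± 0.31 in DKO hearts (SD, n = 4) and 9.33 ± 0.30 in control hearts (SD, n = 4), a change of 0.90 (adjusted p = 0.0168 by limma). In hetDKO hearts Plk2 averaged 9.92 ± 0.07 (SD, n = 3), also above every control array, with a change of 0.59 that was not called (adjusted p = 0.998 by limma), and DKO and hetDKO hearts differed by 0.31 (adjusted p = 0.467 by limma). Cpt1c passed the test in KO, DKO and DKOhet hearts but was detected on 0 of 4 control and 0 of 3 KO arrays, so no fold is given. Over both Axin2 states 6 of the 27 rose and 3 fell, against 10.8% and 10.2% of all genes. Those that fell were Ak1 (-0.68), Gtse1 (-0.37) and Rps27l (-0.25), named after their values were seen.

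**Figure D4:**
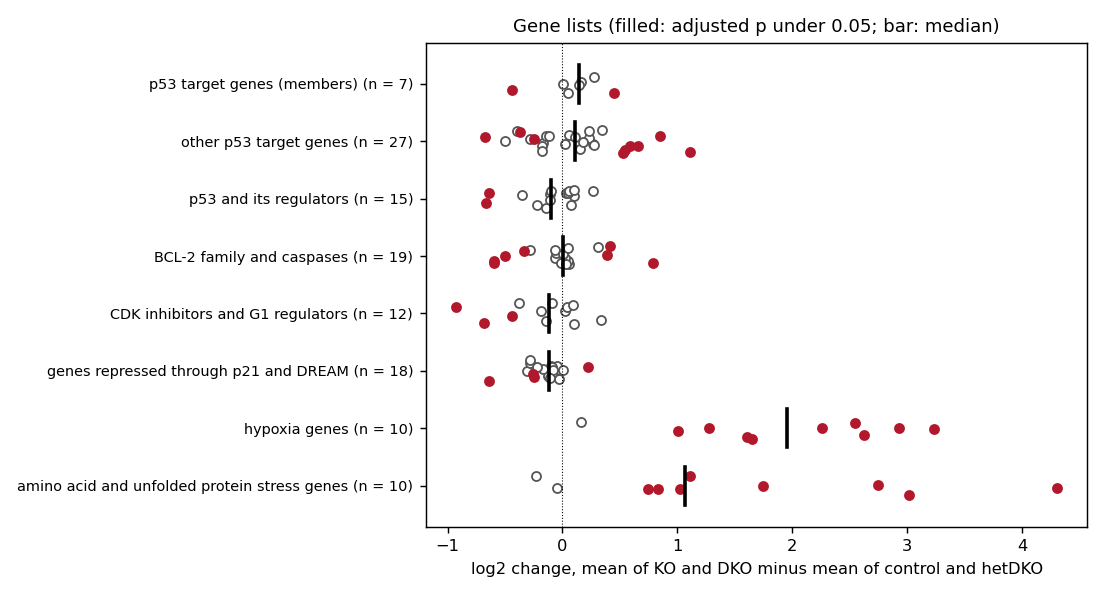
Log2 change over both Axin2 states (mean of KO and DKO minus mean of control and hetDKO) of every measured gene, by its brightest probe, in each list; the number measured stands beside the list name, filled points had an adjusted p under 0.05 and the bar is the list's median. The hypoxia and stress lists lie to the right of the p53 lists, whose medians are between -0.12 and 0.14. All lists were chosen with earlier results of these data known.

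The list of p53 relatives and regulators had median changes of -0.03 in KO, -0.05 in DKO and -0.11 in DKOhet hearts against control. Of 15 measured genes (Trp53 itself was not analysed here), 0 were called in KO hearts. In DKO hearts 0 rose and 2 fell, and in DKOhet hearts 0 rose and 1 fell. Over all genes, 2.89%, 5.83% and 3.6% were called lower in these genotypes, and 3.92%, 7.08% and 4.55% higher. Those that fell in DKO hearts were Trp53rkb, a kinase gene of the p53-related protein kinase family, by 0.61 (adjusted p = 0.0375 by limma) and Trp53i11 by 0.64 (adjusted p = 0.0396 by limma). Trp53i11 is a p53-induced gene rather than a regulator, and it was not counted among the other p53 targets above. Trp53rkb averaged 7.59 ± 0.33 in DKO hearts (SD, n = 4), against 8.20 ± 0.24 in control hearts (SD, n = 4), and its groups did not overlap. In DKO against hetDKO hearts 1 gene of the list rose and 2 fell, against 4.3% and 3.69% of all genes. Ep300, the acetyltransferase that modifies p53, was called in DKO against hetDKO hearts alone, with a change of 0.51 (adjusted p = 0.0458 by limma).

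Cell death genes beyond Bbc3 moved both ways. Of 19 measured BCL-2 family and caspase genes, 1 rose and 0 fell in KO hearts, 3 rose and 1 fell in DKO hearts, and 1 rose and 0 fell in DKOhet hearts, with list medians of -0.05, -0.01 and -0.01. Over all genes, 3.92%, 7.08% and 4.55% were called higher in these genotypes, and 2.89%, 5.83% and 3.6% lower. Bnip3l, a mitophagy receptor that hypoxia induces, averaged 14.02 ± 0.08 in KO hearts (SD, n = 3), 14.00 ± 0.12 in DKO hearts (SD, n = 4) and 13.24 ± 0.14 in control hearts (SD, n = 4). Its changes were 0.78 in KO (adjusted p = 0.000692 by limma) and 0.76 in DKO hearts (adjusted p = 0.000335 by limma). In DKO hearts the survival genes Bcl2l2 and Birc2 rose by 0.54 and 0.41, and Bad, which promotes death, fell by 0.60 (adjusted p = 0.0128, 0.0474 and 0.0222 by limma). The other probes of Bcl2l2 and Birc2 disagreed, with 1 of 2 for each called higher and the other at -0.28 and -0.14. Cycs, cytochrome c, was lower in DKO than in hetDKO hearts, with a change of -0.96 (adjusted p = 0.0482 by limma). Its other probe was called lower there too, at -1.20, and also against control, at -0.72 in KO, -0.93 in DKO and -0.99 in DKOhet hearts (adjusted p = 0.00145, 0.0293, 0.00318 and 0.0104 by limma). The brightest Cycs probe was not called against control in any genotype. It averaged 8.68 in KO, 8.45 in DKO, 8.71 in DKOhet, 9.41 in hetDKO and 8.90 in control hearts.

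Cell cycle genes that p21 acts on or with were lower rather than higher where they changed against control. Of 12 measured CDK inhibitors and G1 regulators, 0 rose and 1 fell in KO hearts and 0 rose and 3 fell in DKO hearts. In DKOhet hearts 0 rose and 1 fell. Over all genes, 2.89%, 5.83% and 3.6% were called lower in KO, DKO and DKOhet hearts against control, and 3.92%, 7.08% and 4.55% higher. Ccne2, cyclin E2, averaged 9.54 ± 0.39 in KO hearts (SD, n = 3), 9.62 ± 0.34 in DKO hearts (SD, n = 4) and 10.50 ± 0.09 in control hearts (SD, n = 4), with changes of -0.96 and -0.88 (adjusted p = 0.0152 and 0.0104 by limma). Cdkn1c, which encodes the CDK inhibitor p57, fell by 0.44 in DKO hearts, and Ccne1, cyclin E1, by 0.76 (adjusted p = 0.0262 and 0.0489 by limma). Of 18 measured genes that p21 represses through the DREAM complex, 0 changed in KO hearts, 0 rose and 1 fell in DKO hearts, and 0 rose and 3 fell in DKOhet hearts. Their median changes were -0.18, -0.16 and -0.25. Over both Axin2 states 1 of the 18 rose and 3 fell, against 10.8% and 10.2% of all genes. Rrm2, a subunit of ribonucleotide reductase, averaged 10.85 ± 0.21 in DKO hearts (SD, n = 4), against 11.85 ± 0.20 in control hearts (SD, n = 4), with no overlap, a change of -1.01 (adjusted p = 0.00132 by limma), while its other probe gave -0.47 and was not called (adjusted p = 0.0953 by limma). Mcm5 and Birc5 fell by 0.48 and 0.43 in DKOhet hearts (adjusted p = 0.02 and 0.0388 by limma), and of the other 2 Birc5 probes 1 was called lower there.

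Other stress genes changed far more in the same hearts. Their lists were chosen with earlier results of these data known, so the size of their changes is not an independent scale. Of 10 measured hypoxia genes 9 rose and 0 fell in each of KO, DKO and DKOhet hearts against control, with medians of 1.97, 1.96 and 2.21, and 0 changed in hetDKO hearts. Of 10 amino acid and unfolded protein stress genes, Sesn2 among them, 6 rose and 0 fell in each, with medians of 1.02, 1.10 and 1.44. Over all genes, 3.92%, 7.08% and 4.55% were called higher in KO, DKO and DKOhet hearts against control. Bhlhe40 from the hypoxia list averaged 11.79 ± 0.20 in KO hearts (SD, n = 3), 11.80 ± 0.36 in DKO hearts (SD, n = 4) and 8.57 ± 0.26 in control hearts (SD, n = 4).

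A few markers of other cells differed between the genotypes. Of the 6 epicardium markers, Krt19 and Wt1 were called higher in KO hearts, by 1.93 and 1.25 (adjusted p = 0.000113 and 0.0414 by limma), and in DKO hearts, by 1.63 and 1.04 (adjusted p = 0.000177 and 0.0447 by limma). The neural marker Dbx1, detected on 10 of 16 arrays, was called lower, with changes of -2.69 in KO and -2.91 in DKO hearts (adjusted p = 0.000639 and 0.000117 by limma), and no erythroid marker was called against control. The other measured neural markers did not all follow Dbx1. Sox2 averaged 8.30 in KO, 7.86 in DKO and 7.91 in control hearts, Neurog2 8.22, 8.57 and 8.60, and Nes 10.89, 10.91 and 11.44. The summed signal of the 6 epicardium markers ranged over 5715 to 8524 in KO, 4030 to 12135 in DKO, 7802 to 10144 in DKOhet, 3932 to 5275 in hetDKO and 2525 to 4248 in control hearts. The 8 measured erythroid markers of 10 summed to 238110 to 279480 in KO, 162710 to 254790 in DKO and 206780 to 265740 in control hearts, and the 4 measured neural markers of 6 to 2415 to 2771 in KO, 2100 to 3301 in DKO and 3353 to 4932 in control hearts. Of the 5 macrophage markers only Lyz2 was measured, and it was detected on 3 arrays. With the erythroid level as a covariate, the Trp53inp1 change was -0.44 over both Axin2 states (adjusted p = 0.00546 by limma) and -0.50 in KO hearts (adjusted p = 0.0641 by limma). The part of the epicardial and neural markers in these results was not tested.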

How the data were processed

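RNA from 16 heart arrays was amplified with an Illumina labelling kit, per the labels' protocols. The authors deposited a non-normalised table with an intensity and a detection p-value for every probe on each array, per the file headers, exported with BeadStudio per the submitters' processing notes. Their normalised intensity table (14788 probes) was an alternative only. Using limma 3.58.1 in R 4.3.3, background was removed with nec (offset 16), signals were quantile normalised between arrays, and log2 values were taken. Probes detected (p under 0.05) on 2 or more arrays were kept (14058 of 25696), and 13238 of them had 1 gene symbol. The linear model had 1 mean for each group over all 16 arrays, followed by eBayes. Comparisons were each mutant genotype minus control, DKO minus hetDKO, DKO minus KO, the mean Rbpj effect and its interaction with Axin2. The fit was tested on simulated data. The brightest kept probe represents a gene. From each other list, genes called against control or in DKO minus hetDKO were named, up to 6 by adjusted p, filled to 2 by p. Members and lists were chosen with earlier results of these data known. Rbpj and Axin2 had no annotated probe, so the labels could not be checked on them. The labels do not say whether replicate numbers pair samples, and the numbers were not treated as pairs in the main fit. Same-numbered arrays on one beadchip correlated over 0.1 in 16 of 23 pairs (median 0.18). Arrays with other numbers on one beadchip did so in 12 of 26 pairs (median 0.07), so some variation may be shared by number. A replicate block was an alternative. The number of arrays limits the precision.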

Additional observations from a re-analysis of the deposited data

Results flagged for a closer look

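The 4 control arrays of Trp53inp1 had signals of 9.73, 9.85, 9.86 and 9.87, and control replicate 1 stood below the others. Its gap to the next array made up 0.894 of the range of the group, above the critical value of 0.829 for 4 samples (Dixon's test). Of 14 groups of 4 arrays tested over the 7 genes this was the only one. Chance flags about 1 in 20 such groups, so 1 among 14 is near what chance gives. Without control replicate 1 the Trp53inp1 change in KO hearts against control was -0.55 (adjusted p = 0.0433 by limma).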

How the results depend on the processing

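Over 29 settings, 1552 of 1617 values of single p53 target genes kept their direction and their side of the threshold or moved by less than the replicate SD, 32 lost a call, 17 gained one and 16 others moved by more than that, with 0 sign changes of a called value. The cause of these differences was not tested. Of the settings, 16 left out 1 array. Where that array belonged to neither group of a comparison, the log2 change could not move, so part of the agreement was fixed in advance. Members called in KO against control (1) became 0 within beadchip 1, within beadchip 2 and with the erythroid covariate. Those in DKO against control (0) became 1, Trp53inp1, without background correction, with an offset of 50, with probes detected on all 16 arrays, in the authors' deposited values, with the beadchip as a block and with array weights, and 2, Cdkn1a added, with the replicate block. Those in DKOhet against control (1) became 0 without a filter, within beadchip 2 and with array weights, and 2 (Bbc3 added) with the beadchip as a block. Those over both Axin2 states (2) became 1 without a filter and 0 within beadchip 2. Leaving out 1 array gave 0 to 1 in KO, 0 to 2 in DKO, 0 to 2 in DKOhet and 1 to 2 over both Axin2 states.

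Counts of all probes varied more. Called probes in KO against control (1061) were 253 within beadchip 1, 95 within beadchip 2, 1858 with array weights and 591 to 1149 with 1 array left out. In DKO against control (1853) they were 457, 22, 2931 and 1040 to 1983. In DKOhet against control (1210) they were 27 within beadchip 2 and 227 to 1737 with 1 array left out. In DKO against hetDKO (1104) they were 439, 4 and 1968 for beadchip 1, beadchip 2 and weights, 600 with the erythroid covariate and 447 to 1442 with 1 array left out. In DKO against KO (2) they were 4 within beadchip 1, 59 within beadchip 2, 1 to 4 with 1 array left out, and 1 without background correction, without a filter, with probes detected on all 16 arrays, in the authors' values, with the beadchip block, with the replicate block, with the erythroid covariate and with array weights. Over both Axin2 states (3016) they were 85 within beadchip 2 and 2319 to 3257 with 1 array left out. The interaction (1) had 4 within beadchip 1, 14 within beadchip 2, 0 with the replicate block and 0 to 2 with 1 array left out. Median scaling split the calls into 429 higher and 654 lower in KO, against 505 and 556, and 489 and 889 in DKOhet, against 604 and 606. The replicate block gave a Trp53inp1 change of -0.48 in KO against control (adjusted p = 0.0366 by limma); 7 of 16 arrays correlated best with an array of their own number. DKOhet has 2 arrays, both on beadchip 2, which limits its comparison, and dim probes (detected on 4 or 9 arrays) carry little signal over background.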
